A study of Mus musculus with 2 samples.

Results

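The genes described here are the ligand Igf1, its receptor Igf1r and the binding proteins Igfbp2, Igfbp3, Igfbp4, Igfbp5, Igfbp6 and Igfbp7. They were taken by symbol, and all 8 of 8 were found among the 27998 genes counted in both libraries. The rule uses no measured value, though the set was proposed with earlier results of these data known. Igf1 was read most in theca-like and immune-like cells and hardly at all in germ-like cells. Igf1r was read in every class, germ-like cells included, but from few UMIs in immune-like, perivascular-like and erythroid-like cells. The binding proteins were divided among the somatic classes: Igfbp2 led in epithelia-like cells, Igfbp5 in theca-like cells, Igfbp4 in theca-like and endothelia-like cells, and Igfbp7 in endothelia-like and perivascular-like cells. Between KO and WT none of the 8 genes passed the size limit in germ-like, granulosa-like, theca-like or epithelia-like cells, and the values that did pass it came from small classes of vascular and immune cells. A gene at a low level could not reach the limit by falling, which held for every member but Igf1r in germ-like cells.

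Insulin-like growth factor 1 is a secreted peptide that acts through a tyrosine kinase receptor at the cell surface, encoded by Igf1r, and promotes growth and survival. Most of the peptide outside cells is held by IGF binding proteins, which prolong its life, limit or direct its access to the receptor, and in part act on cells by themselves. In the postnatal ovary the system is known for its part in granulosa cell proliferation and steroid production.

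The study asked whether loss of the glucocorticoid receptor (GR), encoded by Nr3c1, changes the cells of the fetal ovary. WT ovaries came from 4 embryos and KO ovaries from 2 embryos at E15.5, pooled by genotype into 1 library each, so no group has a replicate. The KO embryos were homozygous for a deletion of exon 3 of Nr3c1, made from the floxed allele Nr3c1tm1.1Jda with the beta-actin Cre Tmem163Tg(ACTB-cre)2Mrt, so that germ and somatic cells alike carry it. The label of both groups names the transgene Tg(Pou5f1-EGFP)2Mnn, by whose fluorescence germ cells were sorted before ovarian somatic cells were added back at 60 to 40, so that the share of germ cells was set by hand. Genotype cannot be told apart from the pool of embryos, the sort or the capture. Nr3c1 itself was at 71.9 CPM (UMI counts per 1000000 UMIs of the class) in germ-like cells of WT and at 11.6 CPM in those of KO, a 3-prime count that does not read the deleted exon directly.

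After filtering, 9046 WT and 15502 KO cells were kept, with medians of 15688 and 10195 unique molecular identifiers (UMIs) per cell. The libraries shared 75 barcodes, 27 of them among kept cells. Cells were named from marker genes, with the suffix -like because the names were rebuilt here and not taken from the study: germ, granulosa, theca, epithelia, endothelia, perivascular, immune and erythroid. Theca is the study's name for the stromal class, marked here by collagen genes, Pdgfra and Tcf21. Some somatic cells also held germ cell transcripts. These mixed cells made up 7.71% of WT and 12.8% of KO somatic cells, and in theca-like cells 8.08% of WT and 16.2% of KO cells. The 8 germ markers stood at a median of 15.8% of their germ-like level in WT theca-like cells and 23.4% in KO theca-like cells, and at 2.08% and 22.9% in endothelia-like cells. In bulk sums of a class, fewer cells that use a gene and less RNA per cell cannot be told apart.

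All 8 genes were matched to the mouse genome build GRCm38 and are protein coding. Igf1 lies on chr10:87858265-87937042 on the plus strand, and Igf1r on chr7:67952827-68233668 on the plus strand. Igfbp2 (chr1:72824503-72852474, plus strand) and Igfbp5 (chr1:72857932-72874884, minus strand) are neighbours that point towards each other, with 5.46 kb between their ends. Igfbp3 lies on chr11:7206086-7213923 on the minus strand, 3.54 kb from Igfbp1, and Igfbp4 lies on the same chromosome at chr11:99041244-99054392 on the plus strand. Igfbp6 lies on chr15:102144362-102149511 on the plus strand and Igfbp7 on chr5:77349240-77408041 on the minus strand. Igf1os, an antisense gene, overlaps Igf1, but it did not exceed 2.37 CPM in any class.

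Igfbp2 (the upstream of its 2 RefSeq starts) and Igfbp5 are shown with the 250 bases before their starts because they share a locus but had different leading classes, and Igf1r is shown as the member with the highest level over all germ-like cells. Sequences are from RefSeq on build GRCm38.p6, on the strand of the gene, and capitals mark the GC box GGGCGG, searched on both strands.
Igfbp2, chr1:72824230-72824479, plus strand: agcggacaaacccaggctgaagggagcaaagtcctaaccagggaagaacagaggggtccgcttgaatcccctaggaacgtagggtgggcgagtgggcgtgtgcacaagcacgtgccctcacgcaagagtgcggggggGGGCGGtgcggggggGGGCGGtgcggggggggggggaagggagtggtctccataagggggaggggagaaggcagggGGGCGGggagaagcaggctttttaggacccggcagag
Igfbp5, chr1:72874866-72875115, minus strand: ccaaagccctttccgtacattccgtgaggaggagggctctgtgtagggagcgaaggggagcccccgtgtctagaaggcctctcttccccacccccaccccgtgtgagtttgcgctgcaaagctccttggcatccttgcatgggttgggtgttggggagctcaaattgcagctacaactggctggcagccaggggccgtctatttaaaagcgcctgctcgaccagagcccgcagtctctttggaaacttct
Igf1r, chr7:67952007-67952256, plus strand: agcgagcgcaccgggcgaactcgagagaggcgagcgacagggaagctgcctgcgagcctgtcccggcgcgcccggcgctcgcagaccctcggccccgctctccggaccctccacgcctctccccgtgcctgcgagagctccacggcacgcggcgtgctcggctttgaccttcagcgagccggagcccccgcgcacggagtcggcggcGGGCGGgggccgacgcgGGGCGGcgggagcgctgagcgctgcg
The GC box was found 3 times before Igfbp2, 2 times before Igf1r and not before Igfbp5, and 32.7% of the 32851 promoter windows held it. GC content was 67.2%, 77.6% and 58.8% for Igfbp2, Igf1r and Igfbp5. The palindromic glucocorticoid receptor element, searched on both strands, was in the windows of 0 of the 8 genes and in 0.387% of all windows, which says only that these letters are not in the 250 bases searched. TATAAA, searched on both strands, was in 12.4% of all windows. Igfbp4 held it on the strand of the gene and Igfbp6 on the opposite strand.

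Igf1, the ligand, was a somatic transcript. In WT it stood at 129 CPM in theca-like cells, 128 in immune-like cells, 84.9 in epithelia-like cells, 70.7 in granulosa-like cells and 70.1 in endothelia-like cells, and in KO at 113, 103, 98.9, 71.9 and 65.3 CPM in the same order. Perivascular-like cells held 27.7 CPM in WT and 27.6 in KO. Theca-like and immune-like cells did not differ beyond counting error in either library, nor did granulosa-like and endothelia-like cells, and in KO immune-like and epithelia-like cells did not either. Theca-like cells held 42.0% of all Igf1 UMIs in WT and 36.2% in KO, granulosa-like cells 30.7% and 29.2%, and epithelia-like cells 21.1% and 28.2%. Germ-like cells held 0.780 CPM in WT and 1.15 in KO.

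**Figure D1:**
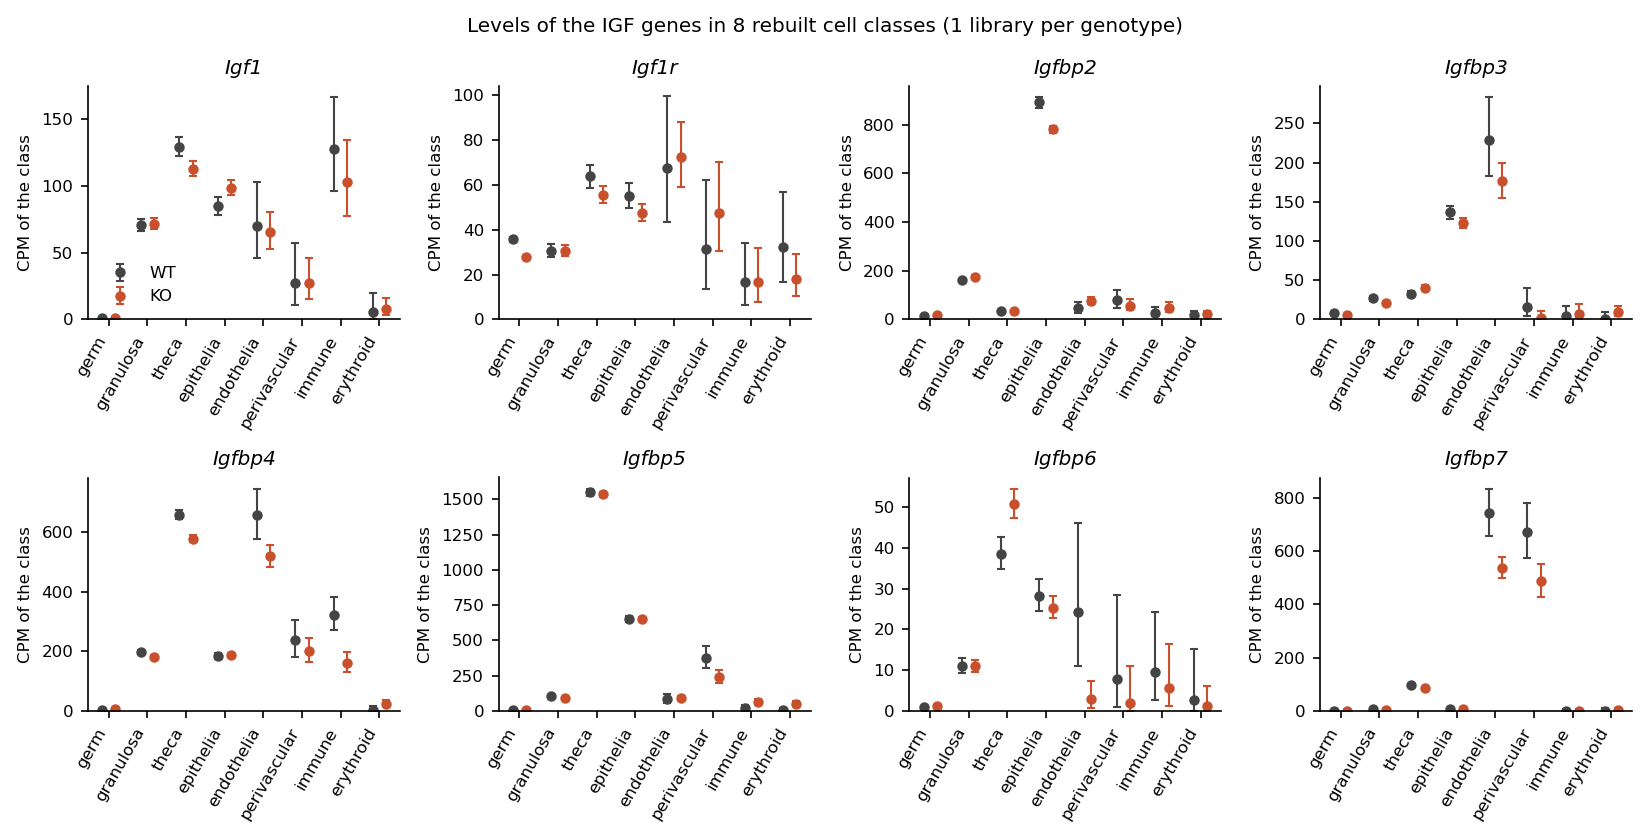
Level of each of the 8 genes in CPM (vertical axis, linear from 0, own scale per panel) in the 8 rebuilt classes, WT in grey and KO in orange, 1 library each; points are summed UMIs and bars exact 95% Poisson intervals. Igfbp2 stands highest in epithelia, Igfbp5 in theca, and Igfbp7 in endothelia and perivascular cells in both libraries.

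Within granulosa-like cells the ligand was divided between 2 clusters. The larger cluster (679 WT and 1566 KO cells) was high for Lgr5, at 125 CPM in WT and 114 in KO, and the smaller cluster (188 WT and 293 KO cells) was low for it, at 9.13 and 14.8 CPM, and higher for Foxl2, the granulosa transcription factor, at 11.3 against 2.35 CPM in WT. Foxl2 had only 55 UMIs over all WT somatic cells and did not pass the marker rule in either cluster. Igf1 stood at 95.03 CPM in the Lgr5-high and 10.2 CPM in the Lgr5-low cluster in WT, and at 94.9 and 12.7 CPM in KO. The log2 ratio of Igf1 was 3.22 (95% counting interval 2.57 to 3.96) in WT and 2.91 (2.33 to 3.55) in KO. At a limit of 2-fold, 7.81% of 8359 genes in WT and 7.94% of 9319 in KO differed between these clusters. Of the 7 members with at least 100 UMIs, all but Igfbp7, 6 passed it in WT and 4 in KO.

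The other members followed Igf1 only in part. Igfbp2 was higher in the Lgr5-high cluster, at 203 against 63.4 CPM in WT and 234 against 43.8 in KO, and so was Igfbp3, at 34.9 against 4.83 CPM in WT and 30.6 against 2.64 in KO. Igf1r ran the other way, at 24.1 CPM in the Lgr5-high and 55.3 in the Lgr5-low cluster in WT and at 27.5 and 45.4 in KO, as did Igfbp6, at 10.2 against 22.0 and 12.0 against 32.7 CPM. Igfbp4 stood at 217 against 244 CPM in WT and 217 against 237 in KO, within 2-fold in both. Igfbp5 stood at 93.7 against 232 CPM in WT, a log2 ratio of -1.31, and at 139.5 against 162 in KO, a ratio of -0.22. The KO Lgr5-high cluster held 62 cells, and the WT one 5, that the first clustering had placed with theca-like cells, in which Igfbp5 is abundant. With granulosa-like cells alone Igfbp5 stood at 94.6 against 160.1 CPM in KO, a ratio of -0.76 (-0.94 to -0.57), and the other members moved by less than their counting intervals. The genes described here were not among those used to cluster, but the clusters come from the same cells, so these values are a description.

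**Figure D2:**
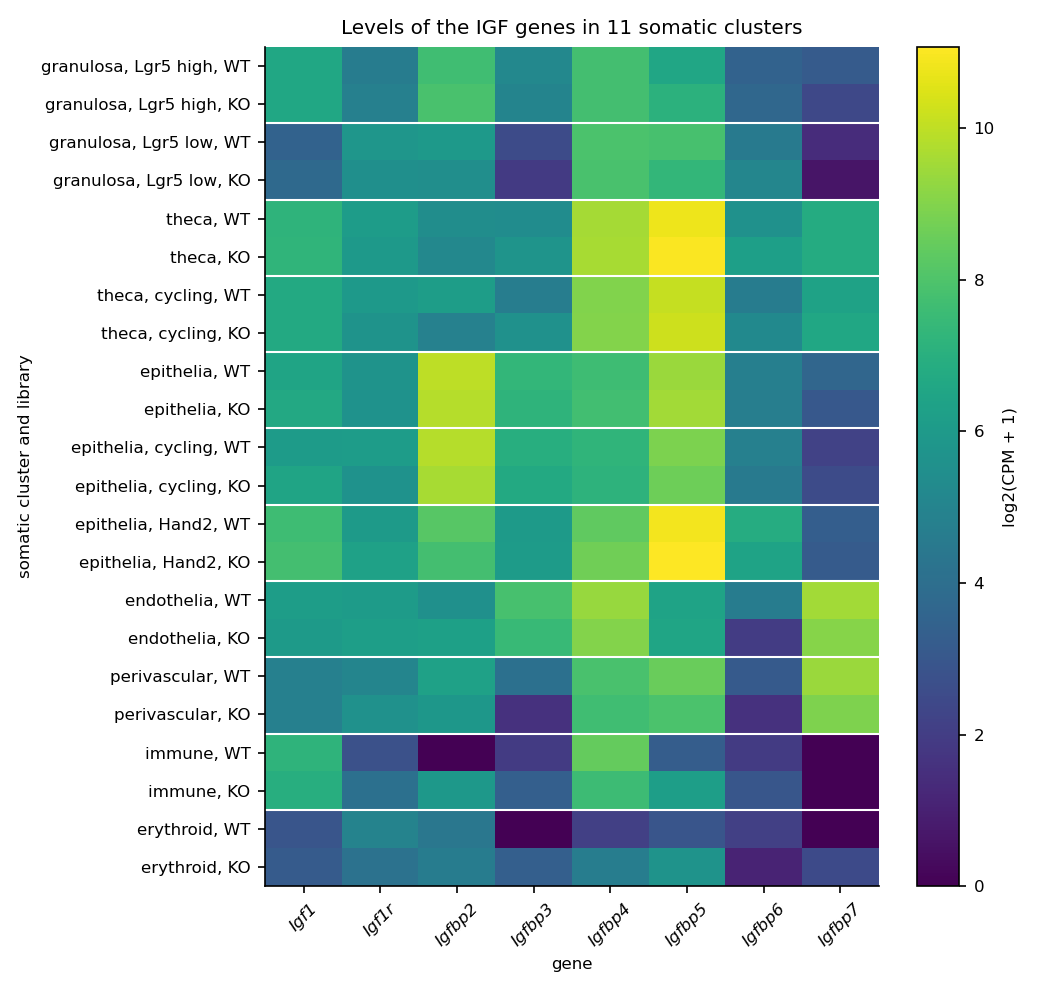
Levels of the 8 genes as log2(CPM + 1) (colour) in 11 somatic clusters, WT above KO for each; cluster names give the class and a leading feature. Igf1 and Igfbp3 are low in the Lgr5-low granulosa cluster in both libraries (Igf1 at 10.2 and 12.7 CPM), and the small Hand2 cluster is high in Igfbp5 (1863 and 2155 CPM).

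Igf1r, the receptor, was the member with the highest level over all germ-like cells. In WT it stood at 67.4 CPM (43.6 to 99.5) in endothelia-like, 63.8 (58.8 to 69.1) in theca-like, 55.2 (49.9 to 60.8) in epithelia-like, 35.8 (34.8 to 36.9) in germ-like and 30.7 (27.7 to 33.9) in granulosa-like cells. In KO the values were 72.5, 55.5, 47.6, 27.9 and 30.6 CPM. Perivascular-like cells held 8 UMIs in WT and 24 in KO, immune-like cells 7 and 9, and erythroid-like cells 12 and 16. In erythroid-like cells the germ markers stood at a median of 36.3% of their germ-like level in WT and 53.3% in KO. Endothelia-like and theca-like cells did not differ beyond counting error in WT. Germ-like cells, which supplied most cells, held 74.7% of all Igf1r UMIs in WT and 60.4% in KO. A UMI of Igf1r was found in 41.8% of WT and 26.3% of KO germ-like cells, but the median depth was 17101 and 11317 UMIs. With every cell thinned to 3000 UMIs the shares were 9.53% (8.84 to 10.3) and 8.18% (7.66 to 8.73).

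The germ-like level was set against free RNA, since droplets carry transcripts of other cells. Of the markers of granulosa, theca, epithelia and endothelia with at least 100 somatic UMIs, 28 in WT and 30 in KO, the germ-like CPM was a median of 1.54% of the somatic CPM in WT and 2.25% in KO. Igf1r was at 76.4% (71.9 to 81.1) in WT and 64.4% (61.0 to 67.9) in KO. Col3a1, a collagen made by theca-like cells, was found after thinning in 1.24% of WT and 1.97% of KO germ-like cells, below the shares of Igf1r. The markers that stood above Igf1r by this measure were Nr2f1 in WT, at 205%, and Tek and Nr2f1 in KO, at 197% and 193%.

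The other members fell into separate ranges by the same measure. Igf1 was at 0.851% of its somatic level in WT and 1.28% in KO, Igfbp5 at 0.795% and 1.32%, and Igfbp4 at 1.07% and 1.72%, all below the median marker in their library. Igfbp7, at 2.497% and 2.237%, and Igfbp6, at 3.69% and 4.26%, lay near or above it. Igfbp2, at 4.85% and 5.85%, and Igfbp3, at 14.1% and 10.0%, were higher, and their levels in germ-like cells were 14.0 and 16.7 CPM and 7.91 and 5.74 CPM. Both still lay within the spread of the somatic markers. Krt7, at 5.30% and 6.22%, stood above Igfbp2, and Bmp2, at 16.1% and 15.0%, stood above Igfbp3. For Igf1, Igfbp4 and Igfbp5 a germ-like level above that of free RNA was thus not detectable.

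**Figure D3:**
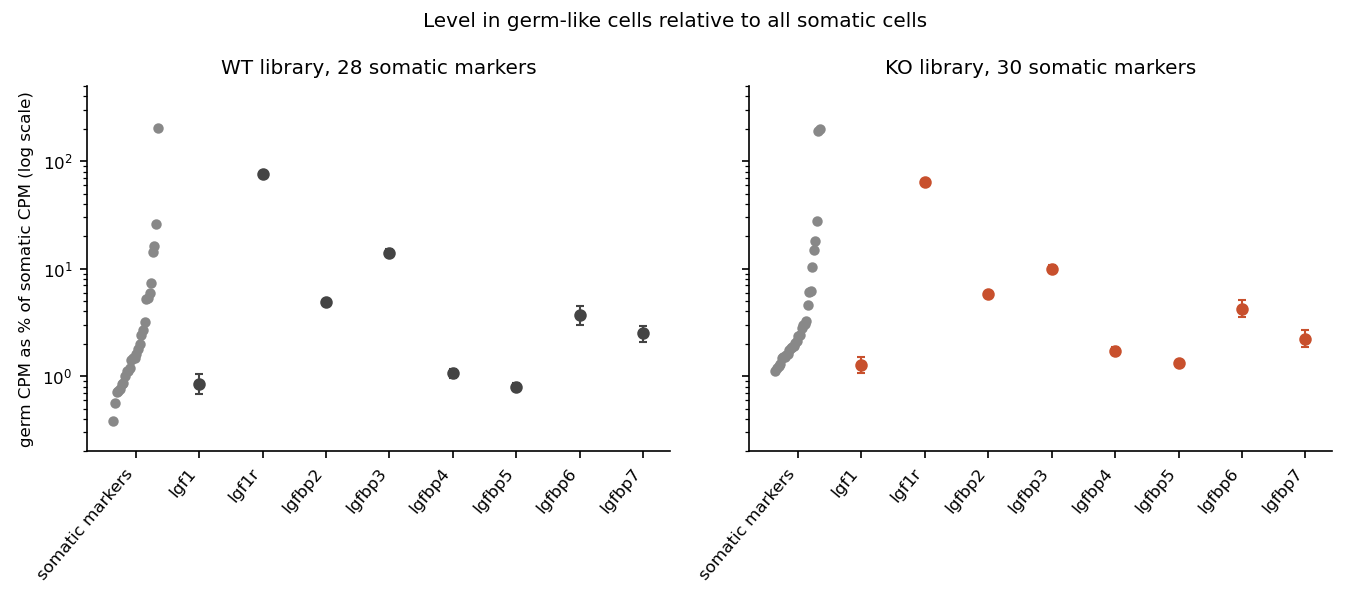
Germ-like CPM as a percent of the CPM over all somatic cells (log axis) for somatic markers in grey and for the 8 genes in colour, WT left and KO right; bars are exact 95% counting intervals. Igf1r lies at 76.4% and 64.4%, Igfbp3 at 14.1% and 10.0%, and Igf1, Igfbp4 and Igfbp5 among the lower markers.

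Germ-like cells formed 7 clusters, which were put in order by falling Stra8, the gene that marks entry into meiosis, from 1573 CPM in germ cluster 1 to 12.1 CPM in germ cluster 7 over both libraries. Sycp1, of the synaptonemal complex, was lowest in cluster 1, at 919 CPM, and highest in cluster 7, at 3618 CPM. In WT, Igf1r stood at 28.5 CPM in cluster 1, 32.8 in cluster 2, 35.7 in cluster 3, 35.2 in cluster 4, 31.2 in cluster 5, 35.8 in cluster 6 and 41.8 in cluster 7. In KO the values were 25.7, 29.8, 25.8, 32.7, 24.1, 30.6 and 26.4 CPM. The receptor was thus present over the whole order, with a range of 28.5 to 41.8 CPM in WT and 24.1 to 32.7 CPM in KO. Between clusters 1 and 7 the log2 ratio of Igf1r was -0.55 in WT and -0.04 in KO.

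Igf2r, the receptor that takes up IGF2 for degradation, was higher at the end of the same order, at 32.5 CPM in cluster 1 and 83.3 in cluster 7 in WT and at 34.6 and 68.6 in KO, though not evenly, with cluster 4 at 28.7 and 36.6 CPM. Igfbp2 was lower there, at 36.2 CPM in cluster 1 and 10.3 in cluster 7 in WT and at 33.1 and 10.4 in KO. In cluster 1 Igfbp2 thus stood above Igf1r, which was at 28.5 CPM in WT and 25.7 in KO.

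**Figure D4:**
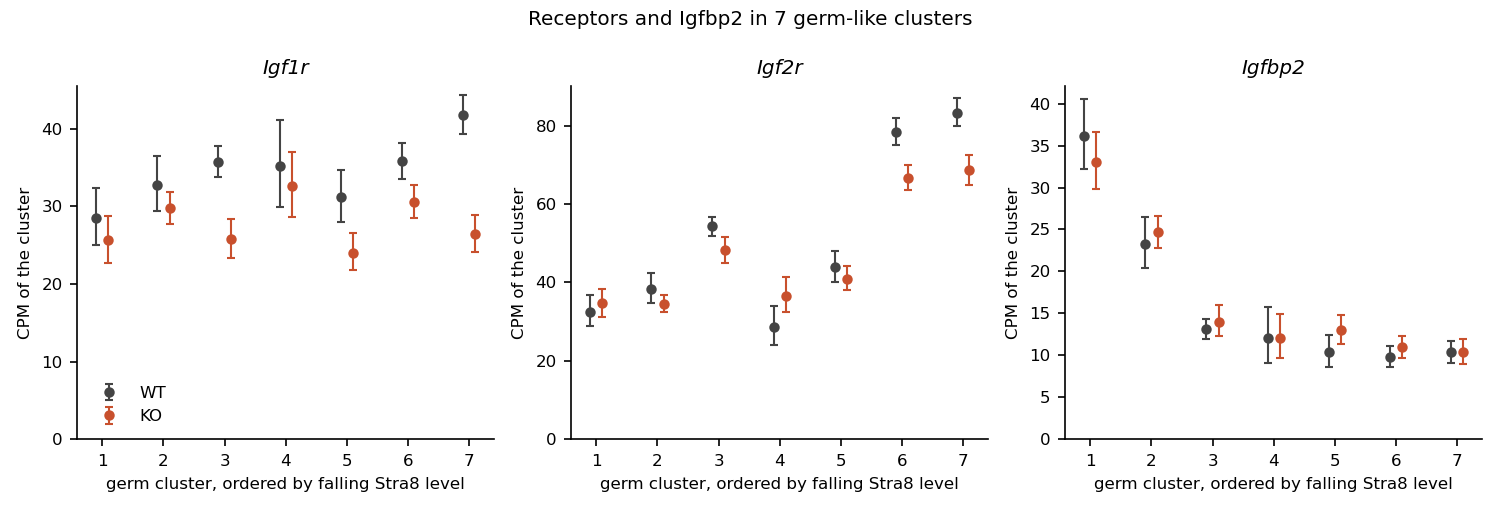
Igf1r, Igf2r and Igfbp2 in CPM (linear axes from 0) in the 7 germ-like clusters ordered by falling Stra8, WT in grey and KO in orange, with exact 95% Poisson intervals. Igf1r stays between 24.1 and 41.8 CPM, Igf2r is highest in clusters 6 and 7, and Igfbp2 is highest in cluster 1.

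The libraries held these clusters in unequal shares: cluster 2 was 8.22% of WT and 18.4% of KO germ-like cells, and cluster 3 was 21.2% and 9.004%. Over all germ-like cells Igf1r had a log2 KO to WT ratio of -0.36 (-0.42 to -0.29), from 4317 UMIs in WT and 3400 in KO. The median of the 13801 germ-like genes with at least 100 UMIs was -0.05, and 10.7% of them had a lower ratio than Igf1r. The ratio was below 0 in 7 of 7 clusters, from -0.66 in cluster 7 to -0.11 in cluster 4, and its counting interval lay below 0 in 4 of 7. Igfbp3 was likewise below 0 in 7 of 7 clusters and its interval in 4 of 7. Igfbp5 was above 0 in 7 of 7 with every interval above 0, at levels in the range of free RNA. The clusters share the same 2 libraries and are not replicates. With the clusters weighted equally the ratio of Igf1r was -0.31, and with each cell thinned to 3000 UMIs it was -0.23. In ln(counts per 10000 + 1), the scale of the study's limit of 0.25, the difference was -0.06.

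The binding proteins were compared between the 3 main somatic classes within each library, at a limit of 2-fold and at least 100 UMIs. Between theca-like and granulosa-like cells, 5 of 6 differed in WT and 5 of 6 in KO, where 20.3% of all genes did in WT and 20.2% in KO. Between epithelia-like and granulosa-like cells, 4 of 6 differed in WT and 5 of 6 in KO, against 13.8% and 13.4% of all genes, and the KO count was 3 without cells holding markers of another class. Between theca-like and epithelia-like cells, 5 of 6 differed in WT and 6 of 6 in KO, against 14.2% and 15.3% of all genes. Igfbp4, Igfbp5, Igfbp6 and Igfbp7 were higher and Igfbp2 lower in theca-like than in granulosa-like cells in both libraries.

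Igfbp2, which binds IGF2 with preference over IGF1, was the binding protein of epithelia-like cells. It stood at 891 CPM (870 to 913) in WT and 779.8 (765 to 795) in KO there, at 160.5 and 175 in granulosa-like cells and at 33.7 and 35.2 in theca-like cells. The log2 ratio of theca-like over epithelia-like cells was -4.73 (-4.89 to -4.56) in WT and -4.47 (-4.60 to -4.34) in KO. Epithelia-like cells held 61.4% of all Igfbp2 UMIs in WT and 63.3% in KO. In immune-like cells its 12 WT UMIs lay in 1 of 31 cells and its 26 KO UMIs in 1 of 50 cells.

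Igfbp5, a binding protein that also attaches to extracellular matrix, was the binding protein of theca-like cells and had the highest level of all 8 genes. It stood at 1551 CPM (1526 to 1576) in WT and 1536 (1516 to 1555) in KO, at 652 and 654 in epithelia-like cells, at 376 and 242 in perivascular-like cells and at 106 and 91.8 in granulosa-like cells. The log2 ratio of theca-like over granulosa-like cells was 3.88 (3.80 to 3.96) in WT and 4.06 (3.99 to 4.13) in KO. In endothelia-like cells it was at 83.6 and 90.5 CPM, but in only 10.0% and 15.4% of the cells.

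Igfbp4, which is cut by the protease PAPP-A, was high in 2 classes. Theca-like cells held 659 CPM in WT and 578 in KO and endothelia-like cells 658 and 519, a difference beyond counting error only in KO. Immune-like cells held 322 CPM in WT and 161 in KO. Granulosa-like cells were at 197 and 182 CPM and epithelia-like cells at 184 and 188. These last classes differed by a log2 ratio of -0.10 (-0.20 to -0.01) in WT and 0.05 (-0.02 to 0.13) in KO, so Igfbp4 was the member that separated them least. After thinning it was in 84.8% of WT theca-like, 43.0% of granulosa-like and 41.4% of epithelia-like cells.

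Igfbp7, an IGF binding protein related protein of blood vessels, had its highest levels in the vascular classes. It stood at 742 CPM in WT and 538 in KO endothelia-like cells and at 672 and 487 in perivascular-like cells, with no difference beyond counting error between these classes in either library. Theca-like cells were at 95.9 and 86.0 CPM, epithelia-like cells at 8.99 and 6.13 and granulosa-like cells at 6.34 and 2.18. The more numerous theca-like cells still held 55.4% of all Igfbp7 UMIs in WT and 51.0% in KO. Endothelia-like cells held 16.6% and 29.3% and perivascular-like cells 10.3% and 9.65%. In immune-like cells 0 of 31 WT and 0 of 50 KO cells held a UMI, which is a limit of 7.10 and 5.63 CPM at 3 counts, and the exact 95% intervals of the plot end at 8.73 and 6.92 CPM.

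Igfbp3, the main carrier of IGF1 in blood, led in endothelia-like cells, at 229 CPM in WT and 176 in KO. These levels rest on 85 and 245 UMIs, or 3.15% and 6.73% of all Igfbp3 UMIs. Igfbp3 was next highest in epithelia-like cells, at 136 and 123 CPM, and they held 37.1% and 45.6% of its UMIs. Theca-like cells were at 32.3 and 40.3 CPM and granulosa-like cells at 26.8 and 21.3. Igfbp6, which prefers IGF2 as a ligand, was low throughout, highest in theca-like cells at 38.6 and 50.9 CPM and next in epithelia-like cells at 28.3 and 25.4 CPM in the main classes.

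As a share of the UMIs of all 6 binding proteins, which are 3-prime counts and carry no gene length, Igfbp5 made up 64.4% in WT and 66.0% in KO theca-like cells and Igfbp4 27.3% and 24.8%. In epithelia-like cells Igfbp2 made up 46.9% and 43.9% and Igfbp5 34.3% and 36.8%. In granulosa-like cells Igfbp4 made up 38.8% and 37.6% and Igfbp2 31.6% and 36.2%. The summed level also differed: it was 2410 CPM in WT theca-like, 1900 in epithelia-like and 507 in granulosa-like cells, and 2326, 1776 and 483 CPM in KO.

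A small cluster of epithelia-like cells (29 WT and 50 KO cells) led by Angptl7, S100a6 and Hand2 differed from the rest of its class. Igfbp5 stood at 1863 CPM in WT and 2155 in KO there, against 689 and 732 in the largest epithelia-like cluster. Igfbp2 stood at 291 and 218 CPM against 1001 and 905. Igf1 was at 199.8 and 218 CPM, above every other somatic cluster of the plot, from 68 and 82 UMIs. The cluster passed 6 of 7 epithelial markers, none of which was among its 10 leading genes.

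Binding proteins were found together in single cells, after mixed cells were left out and every cell was thinned to 3000 UMIs. Igfbp4 and Igfbp5 were both present in 81.1% of WT and 81.8% of KO theca-like cells, where the product of their shares was 80.4% and 81.3%. Igfbp2 and Igfbp5 were both present in 65.1% of WT and 62.1% of KO epithelia-like cells, with products of 64.7% and 61.9%. In granulosa-like cells Igfbp2 and Igfbp4 were together in 15.41% of WT and 15.45% of KO cells, with products of 12.7% and 14.0%. The first pair of shares is so high that the overlap could hardly differ from the product. In WT granulosa-like cells the interval of the overlap (13.1 to 18.0) lay above the product, but in KO the interval (13.8 to 17.2) held it. These intervals are over cells of 1 library, which are not replicates. At least 1 of the 6 was found in all but 1.07% of WT theca-like, 1.62% of epithelia-like and 32.3% of granulosa-like cells.

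Between KO and WT, 0 of the 8 genes passed the limit of 0.25 in ln(counts per 10000 + 1) in any of the 4 main classes. Of all genes with at least 100 UMIs, 0.174% passed it for germ-like, 0.243% for granulosa-like, 0.376% for theca-like and 0.23% for epithelia-like cells. Every member had at least 100 UMIs in each of these classes over both libraries. Because 1 is added before the logarithm, a gene at a low level cannot fall by 0.25 even if lost in full. In germ-like cells every member but Igf1r, at 14.0 CPM or less in WT, was too low for such a fall. Igfbp7 in granulosa-like cells, at 6.34 CPM in WT, was too low as well. For these the limit could not show a fall. There is no replicate, so the counting intervals cover only the sampling of UMIs in 2 libraries.

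By these intervals the members lay on both sides of 0. In theca-like cells the interval lay below 0 for 4 of 8 members and above 0 for 2 of 8, where 12.8% of all genes lay below and 17.6% above. In epithelia-like cells 4 lay below and 1 above, where 6.95% and 11.3% of all genes did. In granulosa-like cells 4 lay below and 1 above, where 15% and 12.8% of all genes did. In germ-like cells 2 lay below and 4 above, where 36.4% and 20.8% of all genes did. Igfbp2, 1 of these 4, had a log2 ratio of 0.26 (0.16 to 0.35) over all germ-like cells, but of 0.04 with the germ clusters weighted equally, and its interval lay above 0 in 0 of 7 clusters.

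The theca-like ratios moved with the mixed cells and with the limits on cells. Igfbp6 went from 38.6 CPM in WT to 50.9 in KO, a log2 ratio of 0.40 (0.22 to 0.58), and 0.64 (0.45 to 0.83) without mixed cells. Igfbp3 went from 32.3 to 40.3 CPM, at 0.32 (0.12 to 0.52), and 0.47 (0.26 to 0.68) without them, but at -0.003 (-0.22 to 0.21) with common limits on cells in both libraries. Igfbp4 was at -0.19 (-0.24 to -0.14) with mixed cells and at -0.02 (-0.07 to 0.03) without them. Igf1 was at -0.19 (-0.30 to -0.09) and -0.05 (-0.16 to 0.07), and Igfbp7 at -0.16 (-0.28 to -0.03) and -0.05 (-0.18 to 0.08). With common limits on cells Igfbp4, Igf1 and Igfbp7 stood lower, at -0.38, -0.42 and -0.41. Igfbp5 was at -0.01 (-0.04 to 0.02) with mixed cells and at 0.12 (0.09 to 0.15) without them, but at -0.26 with common limits. Igfbp6 fell to 0.16 with common limits. Without the mixed cells, 3 of the 8 members lay above 0 in theca-like cells and Igf1r alone below, at -0.18 (-0.35 to -0.004), where 6.12% of all genes lay above and 8.38% below.

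In epithelia-like cells Igfbp2 was at -0.19 (-0.24 to -0.15), and at -0.15 (-0.19 to -0.10) without mixed cells, while in granulosa-like cells it was at 0.12 (0.04 to 0.20) and 0.19 (0.11 to 0.28). Igf1 was higher in KO epithelia-like cells, at 0.22 (0.08 to 0.36), and level in granulosa-like cells, at 0.02 (-0.10 to 0.15). Igfbp7 had the largest ratio of the members in granulosa-like cells, at -1.54 (-2.11 to -0.99), but from 81 UMIs in WT and 42 in KO. Over the alternatives this ratio ranged from -1.56 to -0.99, and 0.153% of the 11110 granulosa-like genes had a lower ratio. In epithelia-like cells Igfbp7 had the lowest ratio of the members, at -0.55, from 66 UMIs in WT and 83 in KO. That ratio ranged from -1.21 to -0.19 over the alternatives. In germ-like cells Igfbp5 was at 0.71 (0.56 to 0.85) and Igfbp4 at 0.53 (0.36 to 0.71), at levels of 8.80 and 5.29 CPM in KO that lay in the range of free RNA, and the median share of somatic markers in germ-like cells was itself higher in KO. The part of free RNA in these ratios was not tested.

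**Figure D5:**
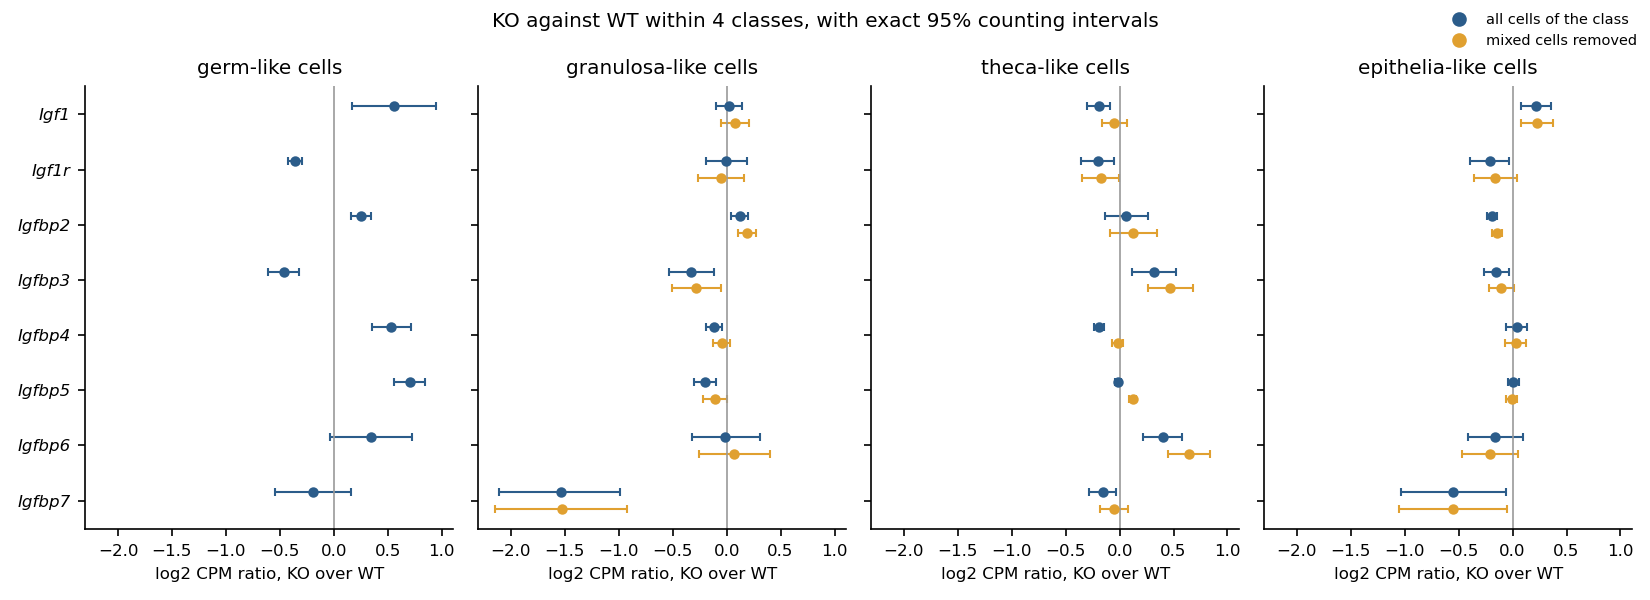
Log2 CPM ratio of KO over WT (horizontal axis) for the 8 genes in the 4 main classes, over all cells of a class in blue and without mixed cells in yellow; bars are exact 95% counting intervals and the grey line is 0. In theca-like cells Igfbp6 and Igfbp3 lie to the right of 0 and Igfbp4 moves to about 0 without mixed cells.

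The small classes held 30 WT and 136 KO endothelia-like, 22 and 57 perivascular-like and 31 and 50 immune-like cells, and there the limit of 0.25 was passed by many genes, 16.1%, 11.4% and 22.6% of those with at least 100 UMIs. Igfbp7 passed it in endothelia-like cells, 1 of 7 members measured, at a log2 ratio of -0.46 (-0.66 to -0.26), and in perivascular-like cells at -0.47 (-0.75 to -0.18). Igfbp5 passed it in perivascular-like cells, at -0.63 (-1.03 to -0.23), so that 2 of 3 members measured did. Igfbp4 passed it in immune-like cells, 1 of 2 members measured, at -0.997 (-1.40 to -0.60). KO endothelia-like cells also carried far more germ cell RNA than WT ones, as given above. In immune-like cells the germ markers stood at a median of 1.45% of their germ-like level in WT and 14.9% in KO, and in perivascular-like cells at 6.26% and 6.31%. Its part in these ratios was not tested.

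The 32 other pathway genes were ligands, receptors, further binding proteins, their proteases, inhibitors of those proteases, signalling proteins and IGF2 mRNA binding proteins. Of these, 25 had at least 100 UMIs in germ-like and 25 in theca-like cells, 23 did in granulosa-like and 24 in epithelia-like cells. In these classes 0 passed the limit of 0.25, which a gene at a low level, such as Grb14 in germ-like cells, could not reach by falling. In germ-like cells the counting interval lay below 0 for 18 of 25 and above 0 for 2 of 25, with a median log2 ratio of -0.20 against -0.05 for all genes, of which 36.4% lay below and 20.8% above. By role these were 2 of 2 receptors, 13 of 16 signalling genes and 3 of 3 IGF2 mRNA binding proteins below 0. Igf2r was at -0.31, from 60.7 to 49.1 CPM, and Insr, the insulin receptor, at -0.37, from 10.6 to 8.20 CPM. Within the germ clusters, held in unequal shares by the libraries, Igf2r was below 0 in 5 of 7, with a median of -0.15. Its interval lay below 0 in 3 clusters and above 0 in 1. Insr was below 0 in 6 of 7 clusters and its interval in 2. Grb14, an inhibitor of insulin receptor signalling picked out here for the largest drop of the list, was at -1.52, from 3.59 CPM in WT to 1.26 in KO. In theca-like cells 6 of 25 lay below and 1 above 0, against 12.8% and 17.6% of all genes. In granulosa-like cells 5 of 23 lay below and 0 above, against 15% and 12.8%, and in epithelia-like cells 0 of 24 lay on either side.

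Igf2, the other ligand, was read more than Igf1 in the 4 main classes. It stood at 295 CPM in WT epithelia-like, 290.2 in granulosa-like and 232 in theca-like cells and at 15.8 in germ-like cells, and at 696 CPM in endothelia-like cells. Pappa, the protease that frees IGF from Igfbp4, was highest in theca-like cells of the main classes, at 5.65 CPM in WT and 4.35 in KO. Igfbp1 and Igfals stayed at or below 2.70 CPM in every class. Among the genes of signalling, Grb10, an imprinted growth inhibitor, was the highest in theca-like cells, at 173 and 163 CPM.

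For each member the 3 genes outside the pathway with the most similar profile were found over the 16 sums of class and library, among 12278 genes with at least 500 UMIs. Igfbp5 was closest to Col6a2, Col3a1 and Rnd3, with Pearson r from 0.962 to 0.967, the first pair being collagens. Igfbp7 was closest to Gng11, Hoxa7 and Pear1 (0.970 to 0.978), Igfbp3 to Kdr, the VEGF receptor of endothelium, Phldb2 and Gchfr (0.903 to 0.919), and Igfbp2 to Aldh1a2, which makes retinoic acid, Cpe and Fcor (0.920 to 0.935). Igf1 was closest to Tpm3, Klf6 and Cpt1a (0.960 to 0.970), Igfbp4 to Tnfsf12, Bzw2 and Zfp36l1 (0.965 to 0.975), Igf1r to Tcf3, Ramp2 and Msrb3 (0.896 to 0.927), and Igfbp6 to Cbx6, Zadh2 and Slc1a6 (0.881 to 0.895). Among the members themselves, Igf1 and Igfbp4 were the most alike, with r = 0.92, and Igfbp2 and Igfbp7 the least, with r = 0.11. The 16 points share their libraries and classes, and the r values are given as a description.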

How the data were processed

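Single-cell RNA was measured by the authors with a droplet 3-prime kit (10x, version 3 chemistry), in 1 KO and 1 WT library. The deposited values are raw UMI counts per gene and barcode, made with Cell Ranger 3.0.2 per the file headers on build mm10. Use of strand and treatment of reads that match several genes are not given in the sources used here. The study's own limits were applied to cells: 1500 to 6500 genes and 5500 to 40000 UMIs in WT, 1200 to 5500 genes and 3000 to 30000 UMIs in KO, and under 10% mitochondrial UMIs. The libraries held 168483330 (WT) and 186117981 (KO) UMIs over 11430 and 17829 barcodes.

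Cells were clustered with scanpy 1.11.5 and leidenalg 0.10.2 (2000 variable genes without the IGF genes, 30 components, resolution 0.5) and named when at least 3 markers were found in at least 10% of a cluster's cells at over 2-fold. Doublets were removed only by the UMI limit. UMIs were summed per class and library and given as CPM with exact Poisson intervals, ratios with exact conditional binomial intervals and shares with exact Clopper-Pearson intervals, all 95%, which cover counting error only. With 1 library per genotype there is no replicate and no test. Counts past a limit are over genes with at least 100 UMIs. All 8 genes were named, and other pathway genes by role or level. The members and lists were chosen with earlier results of these data known. The counts and intervals were checked on simulated data. Alternatives were common cell limits, Scrublet (expected rate 8%), removal of cells with other markers, thinning to 3000 UMIs, means over cells, 2 scalings, resolutions 0.3 and 1, IGF genes among the clustering genes, other count minimums (1 and 500) and a limit of 0.5. Removal of mixed cells, perivascular cells left in theca, equal weights of germ clusters and granulosa clusters without cells of other classes were chosen after seeing the data.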

Additional observations from a re-analysis of the deposited data

Results flagged for a closer look

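Several members had KO to WT ratios of opposite sign in 2 classes, each with a counting interval on its own side of 0. The difference between the classes was not tested in any of them, because each genotype is 1 library. Values are the log2 ratio in the first class minus that in the second. Igf1 was higher in KO epithelia-like and lower in KO theca-like cells (0.42) and higher in KO germ-like and lower in KO theca-like cells (0.75). Igfbp2 was higher in KO granulosa-like and lower in KO epithelia-like cells (0.31), and higher in KO germ-like and lower in KO epithelia-like cells (0.45). That germ-like ratio of Igfbp2 was 0.26 over all germ-like cells and 0.04 with the germ clusters weighted equally, and its interval lay above 0 in 0 of 7 clusters. Igfbp3 was higher in KO theca-like cells and lower in epithelia-like (0.47), granulosa-like (0.65) and germ-like cells (0.78). The Igfbp3 ratio in theca-like cells went from 0.32 to -0.003 with common limits on cells. Under the same limits the theca-like ratios of Igf1 and Igfbp4 were -0.42 and -0.38. Igfbp4 was higher in KO germ-like cells and lower in granulosa-like (0.65) and theca-like cells (0.72). Igfbp5 was higher in KO germ-like and lower in KO granulosa-like cells (0.91). The germ-like values of Igf1, Igfbp4 and Igfbp5 lay at the level of free RNA, and the part of free RNA in these differences was not tested. Mixed cells were a larger share of KO than of WT somatic cells. Without them the interval held 0 for Igf1 (-0.05) and Igfbp4 (-0.02) in theca-like cells, for Igfbp4 in granulosa-like cells (-0.05) and for Igfbp3 in epithelia-like cells (-0.10), so the pairs that rest on these no longer stood on opposite sides of 0.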

How the results depend on the processing

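No paired analysis was possible because each genotype is 1 library. The count of members past the limit of 0.25 was 0 in each of the 4 main classes under every alternative run. Members at a low level could not reach this limit by falling. The log2 ratio of Igf1r in germ-like cells was -0.36 and moved to -0.23 with cells thinned to 3000 UMIs. All genes past the limit in theca-like cells, 40, became 140 with common limits on cells, 61 when scaled without mitochondrial, ribosomal protein and haemoglobin genes, 21 as a mean over cells, 20 after thinning, 19 without Scrublet doublets, 15 without cells holding other markers, 14 without mixed cells and 2 at a limit of 0.5. In granulosa-like cells 27 became 55 with common limits, 17 each without Scrublet doublets, at resolution 1 and without mixed cells, and 1 at a limit of 0.5. At that limit 24 became 0 in germ-like and 23 became 3 in epithelia-like cells. Binding proteins at least 2-fold apart between epithelia-like and granulosa-like cells in KO went from 5 to 3 without cells holding other markers.

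Of the other ratios of single members, 677 stayed within their counting interval, 143 left it with the same sign or without a call, and 5 that had an interval off 0 changed sign. Ratios near 0 without a call that changed sign are counted among the former. "Igfbp3, KO over WT (log2), theca" went from 0.32 to -0.0028 with common limits. "Igf1r, KO over WT (log2), epithelia" went from -0.21 to 0.041 after thinning. "Igfbp4, epithelia over granulosa (log2), WT" went from -0.10 to 0.0555 with median-of-ratios scaling. "Igfbp4, KO over WT (log2), theca" went from -0.19 to 0.0544 and "Igfbp7, KO over WT (log2), theca" from -0.16 to 0.0362 at resolution 1. The cause was not tested. Classes of 22 to 136 cells and levels of a few UMIs limit the vascular, immune and germ-like values of the binding proteins.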
